A study of Homo sapiens with 23 samples.

Results

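The heat shock chaperone genes are a family of 10 genes that help proteins to fold: HSPA1A, HSPA1B and HSPA8 (HSP70 proteins), HSPH1 (HSP110), HSP90AA1 and HSP90AB1 (HSP90 proteins), DNAJB1 (an HSP40, or J-domain, cochaperone), BAG3 (a cochaperone that releases nucleotide from HSP70), and HSPD1 and HSPE1 (the chaperonin pair of mitochondria). They were chosen by gene symbol, as a set known to respond to protein stress through the heat shock factor HSF1. Their Ensembl identifiers made up 10 of the 60605 rows of a table of PRO-seq counts. All 10 were among the 26057 genes that passed the filter on low counts. PRO-seq (precision run-on sequencing) maps engaged RNA polymerases, so a count is nascent RNA from polymerases at work and not standing mRNA.

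The cells were T47D, a luminal breast cancer line that carries the estrogen receptor, and every library came from a single clone, Clone 28, with a degron tag inserted at the endogenous TRPS1 locus. TRPS1 is a repressor of the GATA family. The controls carried the same tagged locus and received 0.1% v/v DMSO for 24 h (n = 4). The treated cells received dTAG-13 and dTAG-V-1 at 50 nM each (dTAG, ligands that send the tagged protein to ubiquitin ligases) for 0.5, 1, 2 or 4 h (n = 4 each) or for 24 h (n = 3: the numbers 2, 3 and 4, with no replicate 1 at that time among the libraries analysed here). The 4 replicates were treated and harvested at different times within a day, so that a replicate number stands for a harvest. Because dTAG acts on the protein, counts of TRPS1 transcripts do not check the treatment. Untagged cells given the ligands, and cells under heat as a positive control, were not analysed here, so that loss of TRPS1 and other effects of the ligands cannot be told apart. Because every DMSO library had 24 h of vehicle, time since dosing was matched only at 24 h of dTAG. At 0.5 to 4 h it cannot be told apart from dTAG either.

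In unstressed cells HSF1 is held in check by chaperones. Unfolded protein draws the chaperones away, and freed HSF1 forms trimers, binds heat shock elements in the promoters of chaperone genes and releases paused polymerase into them within minutes, which is why nascent RNA is an early readout of the response. HSP70 binds exposed stretches of client proteins in cycles of ATP use, J-domain proteins such as DNAJB1 deliver the clients, HSPH1 and BAG3 exchange the nucleotide, and HSP90 takes over many signaling clients, steroid receptors among them. HSPD1 and HSPE1 form the folding chamber of the mitochondrial matrix. HSPA8 and HSP90AB1 are the forms made in most cells at rest, while HSPA1A, HSPA1B and DNAJB1 are the classical inducible members.

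Total counts ranged from 4408544 to 17571616 per library (median 9768427). The 5 replicate 1 libraries stood apart: snoRNA genes held 0.682% to 1.11% of their counts, against 0.441% in DMSO replicate 2 and 0.167% to 0.462% in the other 17. Mitochondrial genes held 3.05% to 6.5% in replicate 1, 2.78% in DMSO replicate 2 and 1.73% to 3.6% in the other 17. DMSO replicate 2 stood apart from those 17 by HSPA8, which took 70.7% of the counts of the 10 genes there and 34.1% to 61.3% in the 17. Results that rest on these 6 libraries are given with and without them. Of the T47D markers, ESR1 lay between 2124 and 2698 CPM (counts scaled to library size) and PGR between 2011 and 2891 CPM, and the luminal keratin KRT18 between 52.1 and 72.7 CPM, with KRT8 and KRT19 higher. The basal keratins KRT5 and KRT14 had 0 to 6 counts and did not pass the filter, and VIM, PTPRC and PECAM1 reached at most 1.99, 4.95 and 2.12 CPM. COL1A1, a marker of fibroblasts, lay between 9.12 and 15.2 CPM.

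Heat shock elements are runs of the unit GAA in alternating orientation. RefSeq (GRCh38.p14) gives windows of 300 bases, 250 before a start site and 50 after it, and held 16 windows for the 10 genes. The element with 3 units (GAANNTTCNNGAA or TTCNNGAANNTTC, which are each other's reverse complement, so that both strands are covered) was found in windows of 4 of the 10 genes: HSPA8, HSP90AA1, HSP90AB1 and HSPD1. It was in 4 of these 16 windows and in 0.49% of all 35116 windows. The 6 stretches are shown because the 4 genes share this element. Sequence was not used to choose the genes. They were chosen, however, for their response through HSF1, which binds such elements, so sharing the element is no independent finding. Each is written 5′ to 3′ on the strand of its gene with the element in capitals, 6 flanking bases on each side where the window allows, and positions counted from -1, the base before the RefSeq start. The HSPD1 element is a longer run of overlapping matches. The stretches of HSPA8 and HSPD1 lie in exons of longer annotated transcripts.
HSPA8, chr11:123062348-123062372, minus strand, bases -236 to -212: gagcttGAAAGTTCCAGAAcgctgc
HSPA8, chr11:123062173-123062197, minus strand, bases -61 to -37: ggccccTTCTGGAAGGTTCtaagat
HSP90AA1, chr14:102087114-102087138, minus strand, bases -94 to -70: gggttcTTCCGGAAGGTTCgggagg
HSP90AB1, chr6:44247772-44247796, plus strand, bases -171 to -147: agcaggTTCTGGAAGATTCatgggc
HSP90AB1, chr6:44247825-44247849, plus strand, bases -118 to -94: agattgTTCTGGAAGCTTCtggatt
HSPD1, chr2:197500062-197500090, minus strand, bases -250 to -222: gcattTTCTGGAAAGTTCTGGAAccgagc

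A shorter 2-unit run (GAANNTTC, its own reverse complement, which lies inside every longer element) was found in windows of 7 of the 10 genes. It was in 8 of their 16 windows and in 6.77% of all windows. HSPA1A, HSPA1B and DNAJB1 carried it without the 3-unit element, and HSPH1, HSPE1 and BAG3 had neither in these windows. That says only that these letters are not in this window. The 250 bases upstream of HSPA1A and HSPA1B are printed because the genes are near copies, with the 2-unit run in capitals, and those of HSPH1 because it was the gene that changed.
HSPA1A, chr6:31815293-31815542, plus strand: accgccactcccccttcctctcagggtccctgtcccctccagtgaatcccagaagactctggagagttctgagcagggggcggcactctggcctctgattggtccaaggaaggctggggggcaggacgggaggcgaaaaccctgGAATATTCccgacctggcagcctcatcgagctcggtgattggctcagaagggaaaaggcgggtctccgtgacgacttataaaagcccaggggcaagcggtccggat
HSPA1B, chr6:31827488-31827737, plus strand: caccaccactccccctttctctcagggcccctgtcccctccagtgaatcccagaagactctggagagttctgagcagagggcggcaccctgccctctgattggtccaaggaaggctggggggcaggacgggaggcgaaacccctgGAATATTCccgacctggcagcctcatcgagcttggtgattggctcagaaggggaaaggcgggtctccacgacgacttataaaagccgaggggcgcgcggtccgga
HSPH1, chr13:31162389-31162638, minus strand: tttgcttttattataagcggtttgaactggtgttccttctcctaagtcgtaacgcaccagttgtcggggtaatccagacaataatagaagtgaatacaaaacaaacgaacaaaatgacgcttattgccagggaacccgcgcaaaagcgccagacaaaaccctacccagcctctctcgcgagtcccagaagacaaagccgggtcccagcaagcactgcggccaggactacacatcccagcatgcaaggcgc
The upstream stretches of HSPA1A and HSPA1B were identical at 94.4% of aligned bases. Their transcripts were identical at 96.2% of aligned bases, and 77.0% of all 30-base stretches of the HSPA1A transcript occur unchanged in HSPA1B. How reads from these copies were divided depends on the authors' alignment, so their separate values are uncertain.

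At rest the 10 genes differed widely in level. In DMSO, per kb of the annotated gene span, HSPA8 had the highest level, 264 ± 193 CPM per kb (SD, n = 4), followed by HSPA1A at 55.4 ± 4.81, HSPA1B at 25.2 ± 3.26 and HSP90AB1 at 17.5 ± 1.68 CPM per kb. HSPE1 and HSP90AA1 came next with 4.58 ± 0.546 and 3.98 ± 0.289 CPM per kb, and their DMSO libraries overlapped. HSPD1 at 2.14 ± 0.0613 and HSPH1 at 1.52 ± 0.107 CPM per kb were each apart from their neighbors in that order. BAG3 at 1.24 ± 0.0655 and DNAJB1 at 1.14 ± 0.0663 CPM per kb overlapped at the low end. This order depends on the annotated span. HSP90AA1 (58958 bases), DNAJB1 (45623 bases) and HSPD1 (30154 bases) also have RefSeq starts far inside their spans. Over a shorter span their levels per kb would be higher, so their places in the order and among all genes are uncertain. Among 25986 genes with a span, HSPA8 ranked at the 99.3 percentile and DNAJB1 at the 59.2 percentile. The inducible HSP70 genes HSPA1A and HSPA1B stood at the 98.4 and 97.4 percentiles of nascent level in cells given DMSO alone.

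**Figure D1:**
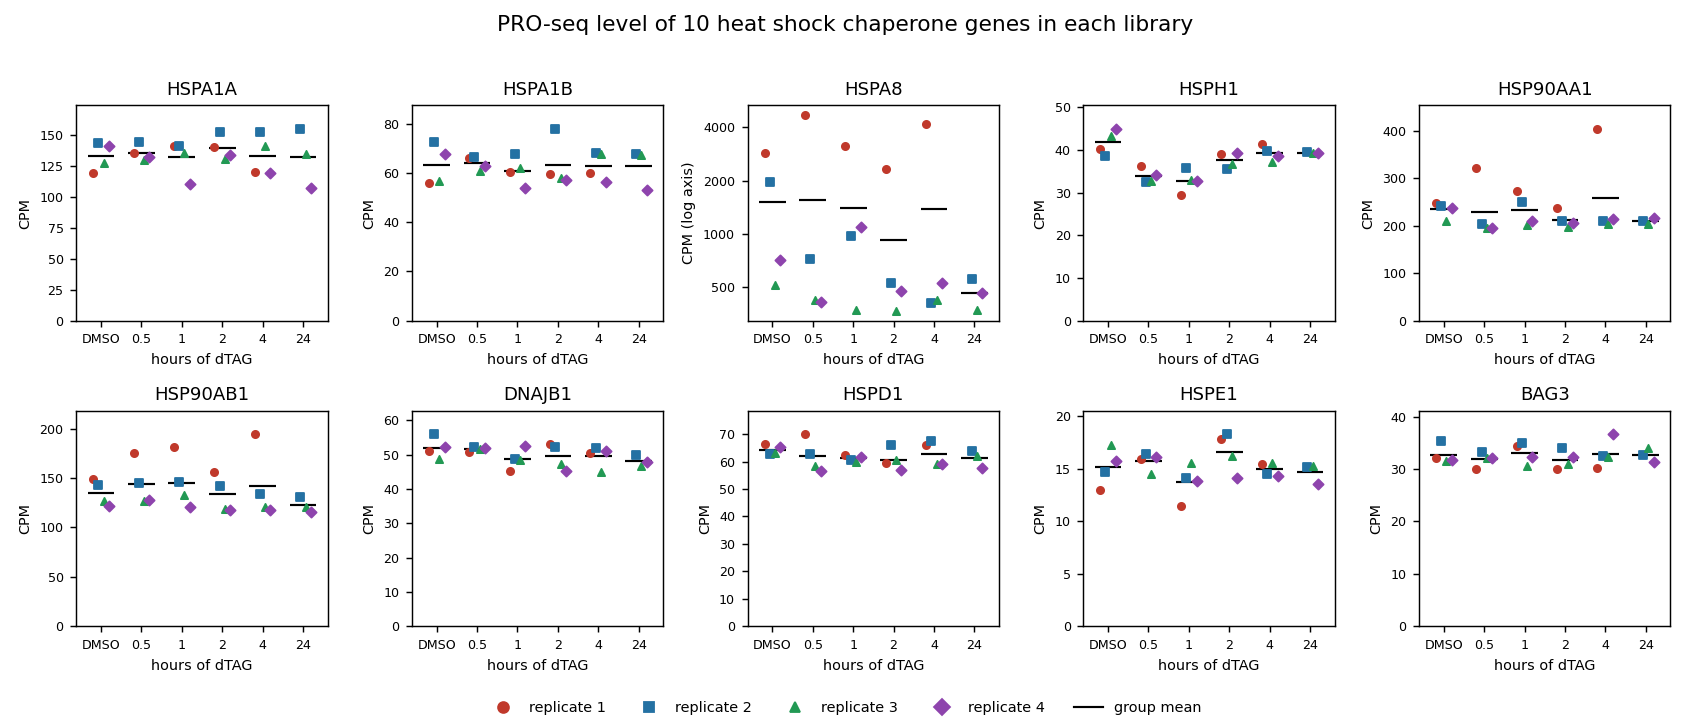
PRO-seq level of each of the 10 chaperone genes in every library, in CPM (y axis, linear from 0 except for HSPA8, which is on a log axis), by hours of dTAG (x axis); points are libraries, colors and shapes mark the replicate number and black lines are group means. HSPH1 is lower at 0.5 and 1 h than in DMSO, while HSPA8 separates the replicate 1 libraries (2334 to 4681 CPM) from most others.

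The time course asks whether nascent transcription of the chaperone genes changed after dTAG was added. HSPH1, the HSP110 nucleotide exchange factor of HSP70, fell at 0.5 and 1 h of dTAG. None of the other 9 genes passed the test at any time, and none of the 10 was called higher. In edgeR's quasi-likelihood test with Benjamini-Hochberg adjustment over all 26057 genes (FDR under 0.1), 1 of 10 was called at 0.5 h, where 0.476% of all genes were called and 0.242% called lower, and 1 of 10 at 1 h, where 1.25% were called and 0.733% called lower. At 2, 4 and 24 h 0 of 10 were called, where 0.733%, 0.833% and 0.863% of all genes were called. An unadjusted p under 0.05 was reached by HSPH1 alone at 0.5, 1 and 2 h (7.68%, 9.42% and 7.1% of all genes) and by 0 of 10 at 4 and 24 h (7.47% and 7.38%), and DESeq2 called 0 of 10 at each of 2, 4 and 24 h. The F-test over all 5 times called HSPH1 alone, with an FDR of 0.00596, where 2.71% of all genes were called. With the replicate number as a block in the fit the calls were again HSPH1 at 0.5 and 1 h (2.48% and 3.25% of all genes called), 0 of 10 later (2.43%, 2.49% and 2.65%) and HSPH1 over the time course (9.01%). In such bulk libraries fewer cells of a kind and less RNA per cell cannot be told apart.

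HSPH1 (ENSG00000120694) lies on the minus strand at chr13:31134973-31162388 of hg38, and its libraries held 139 to 712 counts. In DMSO its level was 40.3, 38.5, 43.3 and 45.1 CPM in replicates 1 to 4. At 0.5 h it was 36.2, 32.5, 32.6 and 34.1 CPM, with 29.5, 35.9, 32.9 and 32.7 CPM at 1 h. All 8 of these dTAG libraries lay below the lowest DMSO library, and the dTAG library was the lower one in 4 of 4 pairs of equal replicate number at each time. Groups that do not overlap were seen for 4.97% of all genes at 0.5 h and for 5.37% at 1 h. At the 3 later times this held for 0 of the 10 genes (4.85%, 4.43% and 9.49% of all genes).

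HSPH1 fell by 0.31 ± 0.06 on the log2 scale (fold change ± SE) at 0.5 h, to 0.807 of the DMSO level (FDR 0.0162, edgeR), and by 0.35 ± 0.06 at 1 h, to 0.784 of it (FDR 0.00419). Both lie near the typical size of a call, since the median absolute log2 change of all called genes was 0.29 at 0.5 h and 0.30 at 1 h. Without the 5 replicate 1 libraries and DMSO replicate 2, a choice made after seeing the data, HSPH1 fell by 0.42 ± 0.06 (FDR 0.00739) and by 0.38 ± 0.06 (FDR 0.0202). That left only DMSO replicates 3 and 4, which had the higher HSPH1 levels (43.3 and 45.1 CPM, against 40.3 and 38.5 CPM in replicates 1 and 2). Leaving out the lower controls enlarges a fall by construction, so that fit cannot check it. The call was lost when replicate 3 or replicate 4 was left out of every group, with log2 changes of -0.27 (FDR 0.603) and -0.28 (FDR 0.437) at 0.5 h and of -0.33 (FDR 0.171) and -0.31 (FDR 0.178) at 1 h.

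At later times HSPH1 stood closer to DMSO. At 2 h it was 39.1, 35.5, 36.7 and 39.3 CPM in replicates 1 to 4, and at 4 h 41.4, 39.8, 37.3 and 38.6 CPM. By 24 h its level was 39.6, 39.4 and 39.2 CPM. All these groups overlapped with DMSO. Relative to DMSO, HSPH1 had log2 changes of -0.15 ± 0.06 (FDR 0.449, edgeR), -0.10 ± 0.06 (FDR 0.825) and -0.09 ± 0.06 (FDR 0.864) at these 3 times. In the blocked fits added after seeing the data HSPH1 was called lower at 2 h too. Without replicate 1 it fell by 0.20 ± 0.05 (FDR 0.0638, with 3% of all genes called). With DMSO replicate 2 left out as well it fell by 0.26 ± 0.06 (FDR 0.0292, with 1.44% called). The first fit drops the DMSO library at 40.3 CPM and the second also the one at 38.5 CPM. These were the lower controls, so leaving them out enlarges a fall and cannot check it. Compared directly, a contrast chosen after these values were seen, HSPH1 was higher at 24 h than at 1 h by 0.26 ± 0.06 on the log2 scale (FDR 0.045, edgeR; 2.08% of all genes called), and every 24 h library lay above every 1 h library. That call was lost when replicate 1 at 1 h (0.22, FDR 0.153) or any of the 3 libraries at 24 h (0.26 to 0.27, FDR 0.135 to 0.142) was left out, and when replicate 2, 3 or 4 was left out of every group (0.26 to 0.31, FDR 0.106 to 0.418). The differences of 0.25 ± 0.06 between 4 and 1 h (FDR 0.125) and of 0.20 ± 0.06 between 2 and 1 h (FDR 0.644) did not pass without the block. With the replicate block the difference between 4 and 1 h passed, at 0.24 (FDR 0.0768, with 1.26% of all genes called). That between 24 and 1 h was then 0.26 (FDR 0.0234, with 6.64% called). Between 2 and 1 h the blocked difference of 0.18 (FDR 0.213) did not pass.

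**Figure D2:**
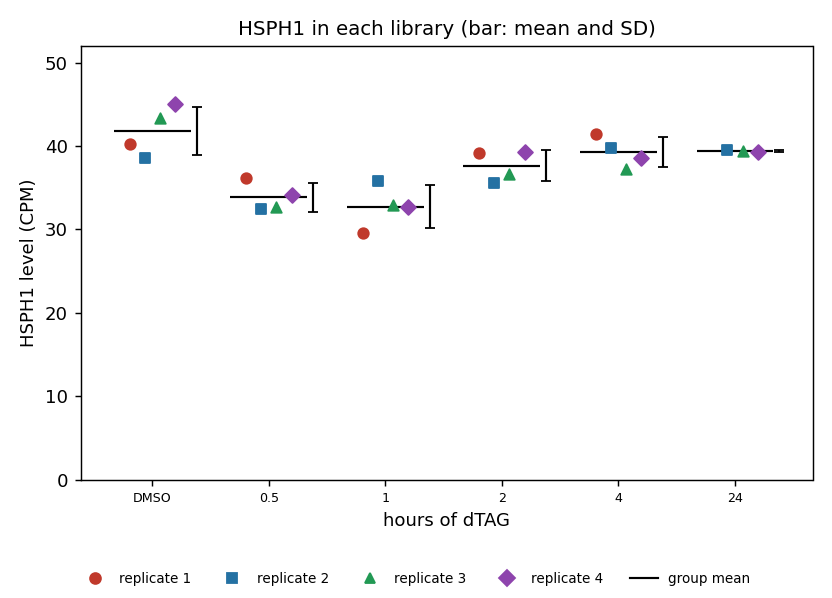
HSPH1 level in each library (CPM, y axis) in DMSO and after 0.5 to 24 h of dTAG (x axis); points are libraries by replicate number, lines are group means and bars are the mean ± SD. The 8 libraries at 0.5 and 1 h sit between 29.5 and 36.2 CPM, below the 4 DMSO libraries at 38.5 to 45.1 CPM.

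The inducible HSP70 genes HSPA1A and HSPA1B did not pass the test at any time. HSPA1A (chr6:31815543-31817946, plus strand) was 133 ± 11.6 CPM (SD, n = 4) in DMSO, and its group means with dTAG ran from 132 to 139.5 CPM, with single libraries between 107 and 156 CPM. HSPA1B (chr6:31827738-31830254, plus strand) was 63.4 ± 8.20 CPM in DMSO, with group means of 61.0 to 64.1 CPM with dTAG. At 0.5 h, the earliest time, the fold change had a 95% interval of 0.879 to 1.18 for HSPA1A and of 0.867 to 1.18 for HSPA1B. Every dTAG group overlapped with DMSO for both genes. HSPA1B shares 1421 bases on its strand with an lncRNA gene, ENSG00000285565, whose mean count was 1301 against 656 for HSPA1B, so that reads may be counted in both.

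HSPA8 (chr11:123057489-123063230, minus strand), the HSP70 protein made at rest, had the widest spread of the 10 genes, a 12.7-fold range over 23 libraries. Its DMSO levels in replicates 1 to 4 were 2884, 1956, 517 and 717 CPM. It was 4681, 725, 424 and 416 CPM after 0.5 h of dTAG and 3139, 974, 374 and 1092 CPM after 1 h. Replicates 3 and 4 were the low libraries in DMSO and at 0.5 h. At 2 h HSPA8 was 2334, 528, 369 and 479 CPM, and at 4 h 4193, 408, 426 and 532 CPM. Replicates 2, 3 and 4 at 24 h gave 561, 374 and 467 CPM. Replicate 1 was the highest library in each group that had one, and every dTAG group overlapped with DMSO.

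HSPA8 was not called against DMSO with or without the replicate block, and the block narrowed its intervals. At 0.5 h its log2 change without the block was 0.04 with a 95% interval from -1.81 to 1.88, and the intervals at the other times were as wide or wider. With the block the changes were -0.52 ± 0.29 (SE; FDR 0.508) at 0.5 h and -0.24 ± 0.29 (FDR 0.799) at 1 h, with intervals that included 0. At 2, 4 and 24 h they were -0.92 ± 0.29 (95% interval -1.53 to -0.32, FDR 0.143), -0.65 ± 0.29 (-1.26 to -0.04, FDR 0.413) and -0.86 ± 0.32 (-1.52 to -0.19, FDR 0.259). HSPA8 was lower than in the DMSO library of the same number in 4 of 4 pairs at 2 h, 3 of 4 at 4 h and 3 of 3 at 24 h. With DMSO replicate 2 left out of the blocked fit, these 3 changes were -0.45 ± 0.24 (FDR 0.596), -0.21 ± 0.24 (FDR 0.873) and -0.36 ± 0.26 (FDR 0.737). Without the block, and without the replicate 1 libraries and DMSO replicate 2, the change at 0.5 h was -0.25 ± 0.32 (FDR 0.899). In a blocked fit that left out replicate 1 but kept DMSO replicate 2, added after seeing the data, HSPA8 was called lower at 0.5, 2, 4 and 24 h, by between 0.91 and 1.08 on the log2 scale (FDR 0.0264 to 0.0812), where 2.72%, 3%, 3.09% and 4.16% of all genes were called. With DMSO replicate 2 also left out, those 4 calls were lost. The blocked log2 changes at the same times were then -0.38, -0.56, -0.53 and -0.53, with FDR from 0.291 to 0.548. DMSO replicate 2 was set apart by its high HSPA8, so leaving it out shrinks a fall of HSPA8 by construction. The fits without it therefore cannot check that fall.

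The 2 cytosolic HSP90 genes differed less between libraries. HSP90AA1, the more inducible form (chr14:102080742-102139699, minus strand), was 249, 243, 210.2 and 237 CPM in DMSO replicates 1 to 4 and 322, 203, 196 and 195 CPM at 0.5 h. At 1 h it was 273, 249, 201 and 209.6 CPM, and at 2 h 239, 209.8, 198 and 206 CPM. It was 405, 210.2, 203 and 215 CPM at 4 h. After 24 h its level was 211, 203 and 218 CPM. Replicate 1 was the highest library of each group that had one. The log2 changes ran from -0.16 ± 0.20 (24 h) to 0.13 ± 0.18 (4 h), and each interval included 0. Without the replicate 1 libraries HSP90AA1 was called lower at 0.5 h in the blocked fit, by 0.21 ± 0.05 on the log2 scale (FDR 0.0231; 2.72% of all genes called), and with DMSO replicate 2 left out as well it was lower by 0.20 ± 0.05 (FDR 0.0954; 1.26% called). At 2 h the first of these fits gave a change of -0.17 ± 0.05 (FDR 0.0714) and the second -0.16 ± 0.05 (FDR 0.255). Without the block, the same 6 libraries left out, the change was -0.18 ± 0.07 (FDR 0.567) at 0.5 h and -0.13 ± 0.07 (FDR 0.85) at 2 h.

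HSP90AB1, the form made at rest (chr6:44246166-44253888, plus strand), was 149, 143, 127 and 122 CPM in DMSO replicates 1 to 4. Its group means with dTAG ran from 122 ± 7.75 CPM (24 h, n = 3) to 145 ± 26.03 CPM (1 h, n = 4), and replicate 1 was again the highest at 175, 181, 156 and 194 CPM at 0.5, 1, 2 and 4 h. No time passed the test, and no group was apart from DMSO.

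The cochaperones of HSP70 did not pass the test at any time. DNAJB1 (chr19:14514769-14560391, minus strand) was 51.97 ± 3.03 CPM in DMSO and had group means of 48.1 to 51.7 CPM with dTAG. BAG3 (chr10:119651380-119677819, plus strand), which also links HSP70 to the small heat shock protein HSPB8 and to autophagy, was 32.7 ± 1.73 CPM in DMSO and 31.8 to 33.1 CPM with dTAG. At 0.5 h the 95% interval of the fold change was 0.916 to 1.08 for DNAJB1 and 0.896 to 1.07 for BAG3. Of the 45623 bases of DNAJB1, 43307 lie opposite TECR, and whether the counting used strand is not given in the sources used here.

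The mitochondrial pair lies head to head on chromosome 2. HSPD1 (chr2:197486584-197516737, minus strand) was 66.5, 62.7, 63.0 and 65.4 CPM in DMSO replicates 1 to 4 and 62.4, 60.5, 60.0 and 61.7 CPM at 1 h. All libraries of 1 h lay below the DMSO libraries, by a margin that did not pass the test (log2 change -0.07 ± 0.06, FDR 0.837). At the other 4 times HSPD1 overlapped with DMSO. HSPE1 (chr2:197500140-197503449, plus strand) had the fewest counts of the 10 genes, 54 to 276 per library, and was 15.2 ± 1.81 CPM in DMSO and 13.7 to 16.6 CPM with dTAG. Most of HSPE1 lies within HSPE1-MOB4, a read-through gene on its strand. HSPE1-MOB4 had a mean count of 704 against 159 for HSPE1, so that counts of HSPE1 may be shared. All 3310 bases of HSPE1 also lie opposite HSPD1, whose mean count was 640, and 16325 bases of HSPD1 lie opposite HSPE1-MOB4. Whether the counting used strand is not given, so the values of this pair are uncertain.

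The 10 genes had median log2 changes of 0.01, -0.06, -0.05, -0.02 and -0.08 at 0.5, 1, 2, 4 and 24 h, against medians of 0.01, 0.01, 0.00, 0.01 and 0.00 over all genes tested. With HSPA8 set aside for its spread, the highest upper bound of the 95% interval of the fold change among the other 9 genes was 1.31, 1.33, 1.25, 1.42 and 1.19 in the same order of times. For HSPA8 the upper bound at 0.5 h was 3.69, and 1.06 with the replicate block. All 5 comparisons share the DMSO libraries.

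**Figure D3:**
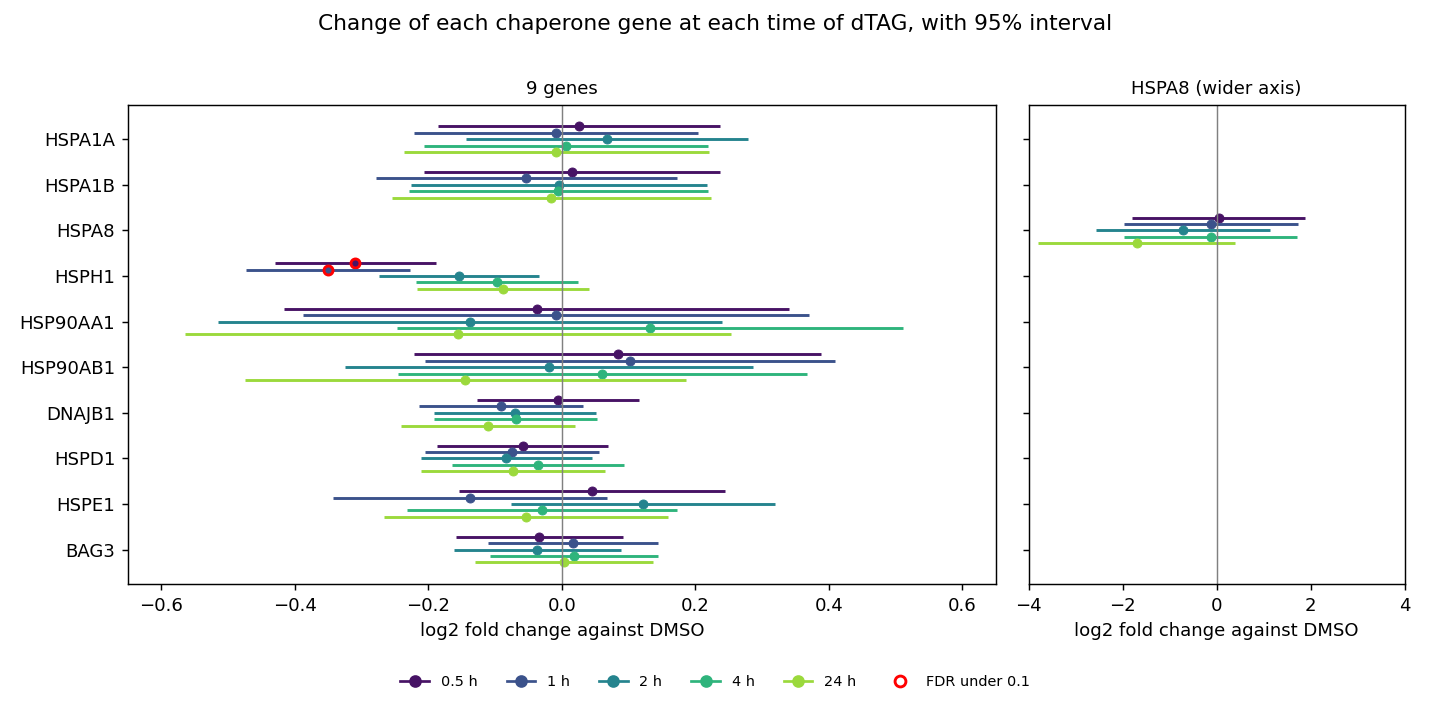
Log2 fold change of each chaperone gene against DMSO (x axis) at 5 times of dTAG (colors), with 95% intervals as horizontal bars; HSPA8 is drawn on a wider axis at the right and red rings mark an FDR under 0.1. The only ringed points are HSPH1 at 0.5 h (-0.31) and 1 h (-0.35).

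More of the 10 genes differed between harvests than with dTAG. In the blocked fit, an F-test over the replicate numbers called 6 of the 10 genes, where 34.7% of all genes were called: HSPA8 (FDR 2.15e-08), HSP90AB1 (1.53e-07), HSP90AA1 (0.000237), HSPA1A (0.0098), HSPA1B (0.011) and HSPD1 (0.0582). HSPH1 (FDR 0.808), DNAJB1 (0.194), HSPE1 (0.54) and BAG3 (0.404) did not pass. Relative to replicate 1, the log2 differences of HSPA8 in replicates 2, 3 and 4 were -2.10, -3.01 and -2.49. Those of HSP90AA1 were -0.41, -0.54 and -0.47, and those of HSP90AB1 were -0.27, -0.44 and -0.49. HSPA1A and HSPA1B differed in another way, with log2 differences of 0.18 and 0.22 for replicate 2 and between -0.07 and 0.04 for replicates 3 and 4. With replicate 2 left out, HSPA8, HSP90AA1 and HSP90AB1 were the 3 genes called.

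The 10 genes also differed in their spread within groups. The SD of log2 CPM within groups was 1.31 for HSPA8, 0.27 for HSP90AA1 and 0.22 for HSP90AB1. These lay above 99.3%, 95.8% and 93.7% of the genes with a mean of at least 100 counts. HSPA1B at 0.16, HSPA1A at 0.16 and HSPE1 at 0.14 were intermediate. HSPD1, BAG3, DNAJB1 and HSPH1 lay between 0.08 and 0.09, with HSPH1 above 24.4% of genes with a mean of at least 100 counts. HSPA8 alone took 34.1% to 83.8% of the counts of the 10 genes.

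HSPA8 moved together with the makeup of the libraries. In replicate 1 snoRNA genes took 0.682% to 1.11% of counts and HSPA8 stood at 2334 to 4681 CPM. In the 17 libraries other than replicate 1 and DMSO replicate 2 the snoRNA share was 0.167% to 0.462%, and HSPA8 stood at 369 to 1092 CPM. Within those 17, each log2 value less its group mean, the share of snoRNA genes other than those inside HSPA8 correlated with HSPA8 at r = 0.934, with HSP90AA1 at r = 0.801, with BAG3 at r = 0.601, with DNAJB1 at r = 0.399, with HSP90AB1 at r = 0.378 and with HSPH1 at r = 0.363. The other 4 genes lay between -0.249 and 0.285. Within the same 17, the mitochondrial share correlated with HSPE1 at r = -0.767, with HSPD1 at -0.673 and with HSPA1A at -0.576. For HSPA1B and HSP90AB1 it was -0.572 and -0.571, for HSPH1 0.560, and for the rest between -0.215 and 0.454. These are descriptions over libraries that share harvests and depth, and HSPA8 also correlated with total counts (r = -0.680, n = 17). HSPA8 hosts the snoRNA genes SNORD14C, SNORD14D and SNORD14E. Their counts came to 3.86% to 6.13% of those of HSPA8, and without them its log2 change at 0.5 h was 0.03. The part of library makeup, RNA quality or harvest in the values of HSPA8, HSPH1 and the other genes was not tested.

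**Figure D4:**
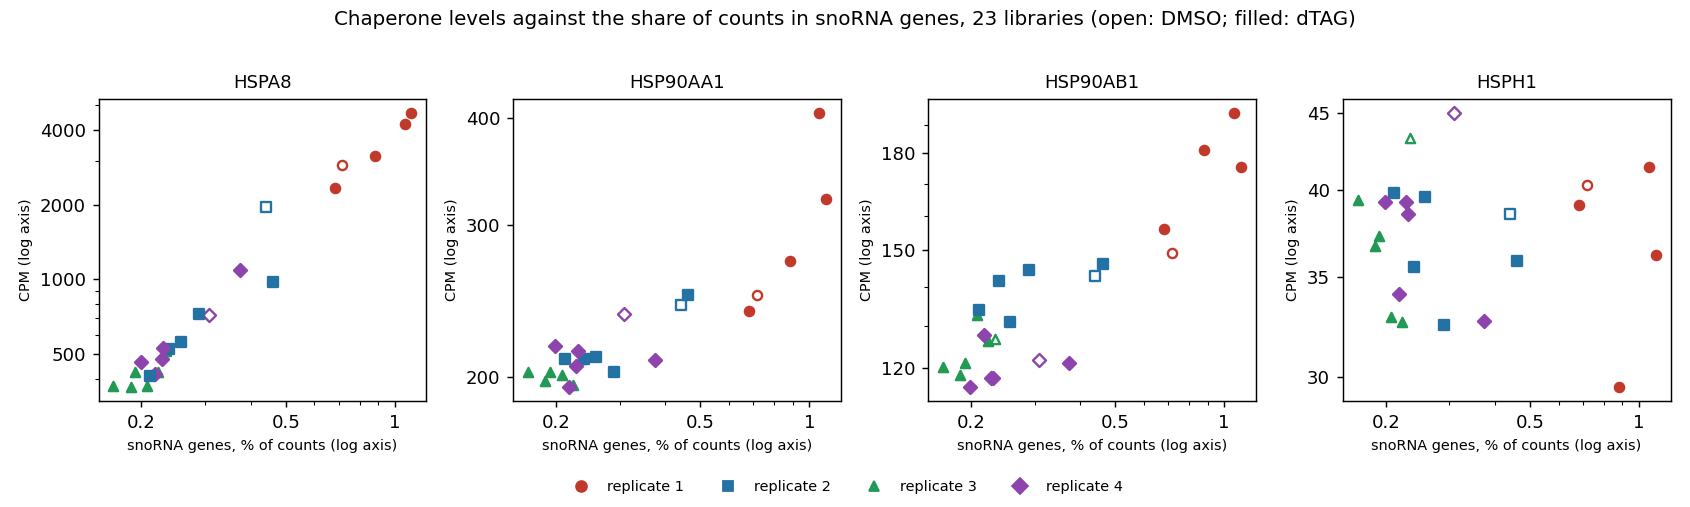
Level of 4 chaperone genes (CPM, log y axes) against the share of each library's counts in snoRNA genes (percent, log x axes) in 23 libraries; open symbols are DMSO, filled symbols dTAG, and colors and shapes mark the replicate number. HSPA8 rises with the snoRNA share from 369 to 4681 CPM, whereas HSPH1 stays between 29.5 and 45.1 CPM at low and high shares alike.

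Beyond the 10 genes, 62 other chaperone and heat-inducible genes were read from lists by role, and 61 passed the filter. HSPA6, an HSP70 gene that is nearly silent without stress, did not: it had 0 to 2 counts per library and 0 in 12 of 23. In the unblocked fit 2 of the 61 (3.28%) were called at some time, where 2.43% of all genes were. With the replicate block 6 of the 61 (9.84%) were called, where 7.89% of all genes were. In that fit 2 were called higher and 4 lower at 0.5 h, where 2.48% of all genes were called. At 1, 2 and 4 h 1 gene each was called (3.25%, 2.43% and 2.49% of all genes), and 0 at 24 h (2.65%). None of the 4 heat shock factors passed in either fit, HSF1 itself among them at 39.0 ± 2.90 CPM in DMSO and 39.4 to 42.4 CPM with dTAG.

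The HSP70 cofactor ST13, which binds the ADP-bound form of HSP70, fell at 0.5 h, the time at which HSPH1 fell too. It was 54.9 ± 2.02 CPM (n = 4) in DMSO and 47.4 ± 1.03 CPM at 0.5 h, a log2 change of -0.21 ± 0.05 (FDR 0.0744, edgeR; 0.0175 with the block). The call was lost in 8 of the 23 fits that left out a single library, with FDR from 0.101 to 0.242: each of the 4 libraries at 0.5 h, DMSO replicates 2, 3 and 4, and replicate 3 at 4 h. Without the replicate 1 libraries and DMSO replicate 2 the change was -0.26 (FDR 0.187). ST13 was the 1 gene called among 11 tested HSP70 proteins and cofactors. HSPB8, a small heat shock protein that works with BAG3, rose at 4 h. It was 117 ± 8.46 CPM in DMSO and 139 ± 8.49 CPM at 4 h (n = 4 each), a log2 change of 0.25 ± 0.05 (FDR 0.0141), and the groups, at 112 to 129.5 and 134 to 152 CPM, did not overlap. With the block it was also higher at 0.5 h by 0.18 ± 0.04 (FDR 0.0403) and at 2 h by 0.18 ± 0.04 (FDR 0.0403). At 24 h it was 119 ± 1.61 CPM (n = 3). The 4 h call held in all 23 fits without a single library and was lost with total counts as scaling (FDR 0.206), with DMSO and 4 h alone in the fit (0.374) and without replicate 2, 3 or 4 in every group (0.21 to 0.309).

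In the blocked fit 4 more genes were called at 0.5 h. Of 8 J-domain genes, DNAJB6 was lower by 0.16 ± 0.05 on the log2 scale (FDR 0.0996) and DNAJC7 higher by 0.15 ± 0.04 (FDR 0.0428). Of 9 HSP90 cochaperones, FKBP4, an immunophilin of steroid receptor complexes, was lower by 0.19 ± 0.04 (FDR 0.0248) and CHORDC1 by 0.18 ± 0.04 (FDR 0.0204), and FKBP4 was lower at 1 h as well, by 0.17 ± 0.05 (FDR 0.0444). FKBP4 (FDR 9.21e-08) and CHORDC1 (0.00045) also differed between replicate numbers, and their groups overlapped with DMSO before the harvest was taken into account. None of the 8 subunits of the cytosolic chaperonin TRiC, the 8 genes of mitochondrial protein folding, the 7 other heat-inducible genes or the 3 chaperones of the endoplasmic reticulum passed at any time in either fit. The median log2 changes over the 61 genes lay between -0.02 and 0.02 at all 5 times.

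Genes whose pattern over the libraries was most like the mean of the 10 were found among 14106 genes with a mean of at least 100 counts, by Pearson correlation of group-centered log2 CPM over 23 libraries. The 5 closest were RPL8, SENP3-EIF4A1, EIF4A1, SNHG25 and SNHG19, at r = 0.971 to 0.975. This mean is dominated by HSPA8, which contributed 88.6% of its summed variance. Without HSPA8 the 5 closest to the other 9 genes were H2AC16, H2BC12, H2BC17, HSPB1 and FAU, at r = 0.891 to 0.91, and only HSPB1 of these is a heat shock gene. Among the 10 genes themselves the closest pair apart from HSPA8 and the HSP90 genes was HSPA1A with HSPA1B (r = 0.849 over 23 libraries), the near copies that share sequence.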

How the data were processed

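PRO-seq counts per Ensembl gene were deposited by the authors as 1 table of raw, whole-number counts for 23 libraries. Per the study's methods, adapters were trimmed, rDNA reads removed, reads aligned to hg38 and duplicates removed by molecular identifier before counting over genes. The submitters' processing notes name cutadapt 1.8.1, Bowtie2 2.4.4 and SAMtools 1.9. The annotation release and the use of strand are not given in the sources used here. Symbols came from GENCODE 44, which matched 60463 of 60605 identifiers.

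Counts were scaled by TMM and tested with edgeR 4.0.16 (R 4.3.3, limma 3.58.1; quasi-likelihood test, two-sided) in a single fit of all 23 libraries by group, after a filter on low counts (filterByExpr, minimum count 10, minimum total 15) that left 26057 genes. P-values were adjusted by Benjamini-Hochberg over all these genes, with an FDR threshold of 0.1. CPM are counts scaled to TMM-adjusted library size, and intervals are 95%. Standard errors were computed from the log2 change and the F statistic. For HSPE1 and BAG3 some intervals were narrower than the p-value of the same test implies. The replicate number was added as a block, and DESeq2 1.42.0 used, as alternatives. The labels tie a number to a shared harvest, so the numbers were taken to pair the libraries: same-numbered libraries deviated together (mean r 0.287 over 55 pairs, against -0.0825 over 165 pairs of different number). Replicates were separate dishes of 1 clone, and p-values measure the spread between these. No pair of libraries of a group agreed within sampling noise (chi-square per degree of freedom 1.63 to 44.8, 33 pairs).

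On data simulated for the 0.5 h comparison (25768 genes), the test recovered 17.9% of genes changed by 0.25 on the log2 scale, 79.1% of those changed by 0.5 and 97% of those changed by 1. Sequences were read from RefSeq tables (GRCh38.p14) with Python 3.11.15, pandas 2.3.3 and Biopython 1.88, and figures drawn with matplotlib 3.10.9. The chaperone genes and the lists were chosen with earlier results of these data known. The text names all 10 genes, the called genes of each other list (at most 4), and the 5 genes most like the mean of the 10. The genes most like the other 9 were added after their values were seen.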

Additional observations from a re-analysis of the deposited data

Results flagged for a closer look

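In 7 of 50 groups of 4 libraries a single library lay far from the others by Dixon's test at the 95% level, where chance gives about 5%. In HSPA8 these were the replicate 1 libraries at 0.5 h (4681 CPM, the others 416 to 725), at 2 h (2334 CPM, the others 369 to 528) and at 4 h (4193 CPM, the others 408 to 532). In HSP90AA1 they were replicate 1 at 0.5 h (322 CPM, the others 195 to 203) and at 4 h (405 CPM, the others 203 to 215). For HSPA1B it was replicate 2 at 2 h (78.1 CPM, the others 57.0 to 59.6), and for BAG3 it was DMSO replicate 2 (35.3 CPM, the others 31.6 to 32.2). The level of HSPH1 differed between 24 h and 1 h of dTAG by 0.26 on the log2 scale (FDR 0.045, edgeR), in a contrast chosen after its values were seen.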

How the results depend on the processing

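The calls of HSPH1 at 0.5 and 1 h held in all 23 fits without a single library. At 0.5 h 0 of the 10 genes were called with no filter on low counts (HSPH1 FDR 0.102) and with DMSO and that time alone in the fit (0.244), and at 1 h 0 with that time alone (0.13). Leaving out a replicate number from every group gave 0 to 1 genes at 0.5 h, at 1 h and over the time course, 3 to 7 between replicate numbers (6 with all libraries) and 0 to 2 of the other chaperone genes, of which 1 to 2 were called without a single library. In the other fits 0 of these 61 genes were called with total counts as scaling, 0 with 1 time alone, 1 with no filter, 1 without replicate 1 and DMSO replicate 2, and 6 with the replicate block (2 in the unblocked fit).

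The replicate block changed no call of the 10 genes, while the calls over all genes went from 124, 325, 191, 217 and 225 at 0.5, 1, 2, 4 and 24 h to 645, 846, 634, 650 and 691 with it. With 1 time alone they were 2, 69, 79, 38 and 106. In blocked fits added after seeing the data, the calls without replicate 1 were 3, 1, 3, 1 and 1 of the 10 at the 5 times in order. Of all genes 2.72%, 2.78%, 3%, 3.09% and 4.16% were called there. Over the time course 4 of the 10 were called, and 8 of the other chaperones. With DMSO replicate 2 also left out the calls were 2, 1, 1, 0 and 0, with 2 over the time course. Of all genes 1.26%, 1.91%, 1.44%, 1.5% and 2.45% were called at those times. Without DMSO replicate 2 alone 6 other chaperones were called. For the time course and the other chaperones the share of all genes is not given here, so those counts cannot be read against it.

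The HSPA8 change at 0.5 h (0.04) turned sign with total counts (-0.034), with the block (-0.52), without replicate 1 (-1.03), without replicate 1 and DMSO replicate 2 (-0.25), and in the blocked fits without replicate 1 (-0.91), without both (-0.38) and without DMSO replicate 2 (-0.047). It ran from -1.55 to 0.55 without a single library, being -0.25 without DMSO replicate 3, -0.19 without DMSO replicate 4 and -1.55 without replicate 1 at 0.5 h. The cause was not tested. Depth limits what could be seen of small changes: HSPE1 had 54 to 276 counts per library.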

Other observations

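The genes whose group-centered pattern was most like that of HSPH1, chosen after its values were seen, were PALM2AKAP2, NUB1, H3C13, STYX and PLEKHH3, at r = 0.656 to 0.728 over 23 libraries and 14106 candidates. Of nested pairs of genes with a mean of at least 100 counts each, the inner gene had more counts than the outer in 7 of 860 pairs on the same strand (0.814%) and in 93 of 583 pairs on opposite strands (15.95%).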
